A study of Mus musculus with 27 samples.

Results

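The genes examined were 10 genes that build and use dopamine, noradrenaline and serotonin in the fetal mouse brain, namely Th, Ddc, Slc6a3, Slc18a2, Tph2, Slc6a4, Fev, Dbh, Nr4a2 and Pitx3. They were taken by symbol from the 55416 genes of the read-count table, and all 10 were found there. RNA of the whole brain of female fetuses had been sequenced in 27 libraries, 3 from each of 3 strains at d12, d15 and d17 of gestation, counting the day of the vaginal plug as d1. AKR/J is an inbred strain and C57BL/6J is the inbred strain to which B6.Cg-Cav1tm1Mls/J is congenic. The latter, called Cav1-null here, carries a targeted Cav1 allele and lacks the membrane protein caveolin 1. The labels do not say whether the 3 libraries of a group came from separate litters, so that the p-values here measure the spread between these libraries only. Cav1 itself, read as a check of the labels, ranged from 0 to 0.509 CPM in Cav1-null and 9.24 to 39.9 CPM in the others.

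Dopamine and noradrenaline are made from tyrosine by Th and Ddc, with Dbh turning dopamine into noradrenaline, and serotonin is made from tryptophan by Tph2 and Ddc. Slc18a2 loads all these amines into vesicles, Slc6a3 takes dopamine back into the cell and Slc6a4 takes back serotonin. In the brainstem, dopamine neurons of the ventral midbrain depend on the transcription factors Nr4a2 and Pitx3, and serotonin neurons of the hindbrain raphe depend on Fev. These cells are few and are diluted by all other cells of a whole brain.

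The stretches of sequence before the start sites of 4 of the genes are shown because Nr4a2 protein binds NBRE sequences and GATA factors act upstream of Fev in serotonin neurons. They come from GRCm39, read on the strand of the gene, and capitals mark the motif. The NBRE letters AAAGGTCA, searched on both strands in the 250 bases before the start of the canonical transcript, lay before 1.19% of 21770 protein-coding genes and before Ddc alone of the 10. The GATA letters AGATAA lay before 9.6% of genes and before Tph2, Fev and Slc18a2. The Ddc stretch is chr11:11848180-11848247 on the minus strand and the Slc18a2 stretch is chr19:59249050-59249115 on the plus strand, both with the motif on the strand opposite to the gene. The Tph2 stretch is chr10:115021020-115021085 and the Fev stretch is chr1:74924650-74924715, both on the minus strand with the motif on the gene's own strand. The cAMP response element TGACGTCA lay before 1.69% of genes and, of the 10, before Th alone, the bicoid-type motif TAATCC before 7% and the ETS motif CCGGAAGT before 2.64% and neither of these before any of the 10. A match of letters is a description and was not tested as a binding site.
Ddc: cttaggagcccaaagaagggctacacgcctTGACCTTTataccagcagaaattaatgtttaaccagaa
Slc18a2: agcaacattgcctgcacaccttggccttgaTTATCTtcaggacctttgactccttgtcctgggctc
Tph2: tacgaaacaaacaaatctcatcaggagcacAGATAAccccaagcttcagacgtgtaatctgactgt
Fev: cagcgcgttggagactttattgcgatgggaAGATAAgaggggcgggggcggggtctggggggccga

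Levels are in CPM, read counts relative to TMM-scaled library sizes, from libraries of 26363697 to 39759702 reads on genes. The libraries of 1 group differed in the levels of genes that mark brain regions. En1, a homeobox gene of the midbrain and anterior hindbrain, was 0.789 CPM in C57BL/6J d12 replicate 1 against 29.5 and 24.0 CPM in the other two. It was 3.82 and 3.27 CPM in Cav1-null d12 replicates 1 and 2 against 19.3 CPM in replicate 3, and 3.50, 2.76 and 14.9 CPM in AKR/J d12 replicates 1, 2 and 3. The summed level of the 39 Hox genes, which mark the hindbrain and spinal cord, was 1.00 to 1.95 CPM in 2 libraries of C57BL/6J d15 and 260 CPM in replicate 3. The AKR/J libraries of d12 also stood apart in the summed level of 10 erythroid markers, 33204 to 197820 CPM against at most 18614 CPM elsewhere, and of 11 placenta and yolk sac markers, 53.5 to 2188 CPM against at most 42.6 CPM. Each library was left out in turn, but no comparison with AKR/J d12 can be made without its 3 libraries together, so the early, d12 to d17 and d12 strain results of AKR/J all rest on them.

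All 10 genes were sparse or moderate in the whole brain. Per kb of the canonical transcript, the median over 27 libraries was highest for Slc18a2 at 9.50 CPM per kb, followed by Nr4a2 at 5.93 and Ddc at 2.71 CPM per kb. Slc6a4 at 1.24, Th at 1.03 and Tph2 at 0.849 CPM per kb came next. The lowest medians per kb were those of Slc6a3 at 0.453, Fev at 0.431, Pitx3 at 0.292 and Dbh at 0.142 CPM per kb, and these 4 genes were at 0 reads in 2, 3, 2 and 4 libraries. Per kb, Slc18a2 had the highest mean of the 10 in 7 of the 9 groups of strain and day. Ddc was first in AKR/J d12 and Nr4a2 in C57BL/6J d17, each with libraries that overlapped those of the next gene.

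**Figure D1:**
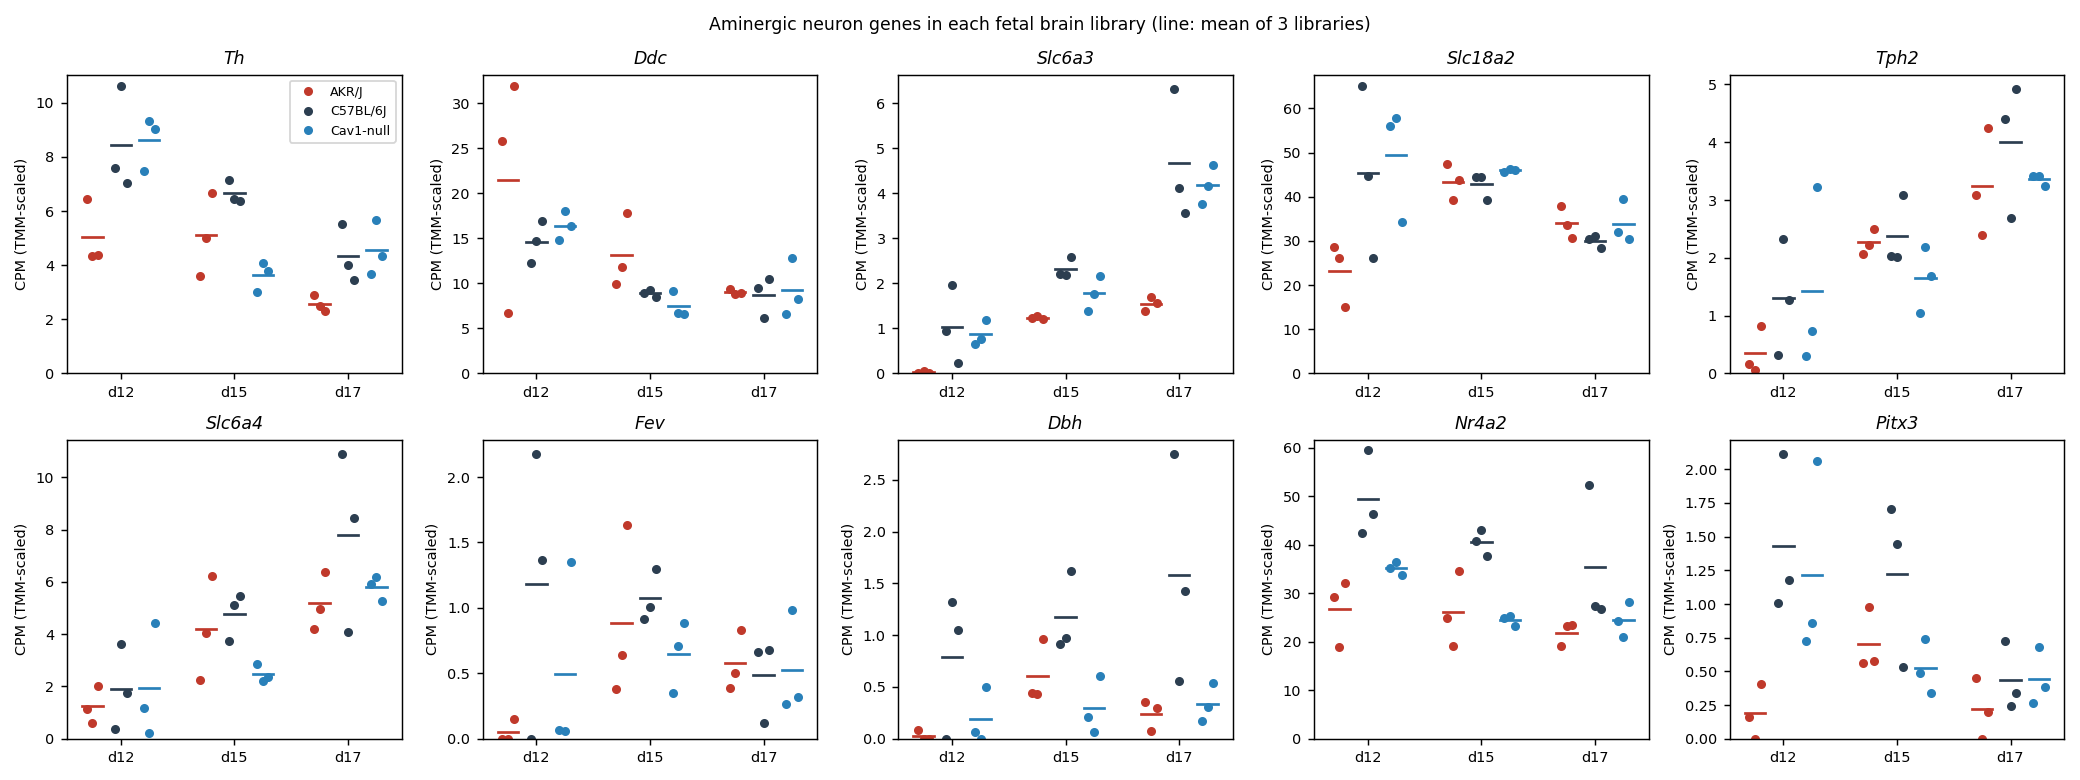
Level of each of the 10 genes in TMM-scaled CPM by gestational day, 1 point per library and a line at the mean of 3 libraries, with AKR/J in red, C57BL/6J in dark grey and Cav1-null in blue. Slc6a3, Tph2 and Slc6a4 have their highest means on d17 in each strain, while Th and Ddc have their highest means on d12 in C57BL/6J and Cav1-null.

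The early phase (d12 to d15) and the late phase (d15 to d17) were compared within each strain in edgeR with quasi-likelihood F tests and p-values adjusted by Benjamini-Hochberg over all genes tested, and a gene was called at an adjusted p under 0.05. Log2 fold changes between days put the later day over the earlier one. In AKR/J, 6 of the 10 genes were called early, all higher on d15, where 28.9% of all genes tested were called and 14.8% were called higher. Of these, Slc6a3, Fev and Dbh had 2, 3 and 2 reads in all on d12 against 119, 84 and 58 on d15. They passed the filter on low counts through d15 alone, so they could only be called higher, and they are part of the median given below. Likewise, Slc6a3 and Fev passed it over d12 to d17 in AKR/J through d17 alone. In the late phase of AKR/J, Th alone of the 10 was called, against 22.1% of all genes called and 10.4% called lower. C57BL/6J had 1 of 10 called in the early phase (Ddc), against 14.9% of genes (7.08% called higher, 7.80% called lower), and later 2 of 10 (Slc6a3 and Slc18a2), against 13.0% (7.46% called higher, 5.58% called lower). For Cav1-null, 3 of 9 tested were called in the early phase (Th, Ddc and Nr4a2), against 23.4% of genes (11.6% called higher, 11.8% called lower), and later 4 of 9 (Slc6a3, Slc18a2, Tph2 and Slc6a4), against 27.3% (14.5% higher and 12.8% lower). From d12 to d17, 5 of 8 (AKR/J), 2 of 10 (C57BL/6J) and 5 of 8 (Cav1-null) were called, against 45.8%, 26.2% and 44.0% of genes. The shares called higher were 23.1%, 14.5% and 20.8%, and those called lower 22.7%, 11.7% and 23.3%. The share among the 10 genes was farthest above the background in AKR/J early. It was above it by few genes over d12 to d17 in AKR/J and late and over d12 to d17 in Cav1-null. Early in Cav1-null and late in C57BL/6J it was near the background, and in the other steps it was below it. No contrast between strains is drawn from these shares. With so few genes these are descriptions, and the early count of AKR/J was 1 of 10 without d15 replicate 1 or 3, 2 without d15 replicate 2 and 3 without d12 replicate 1. Their median log2 fold change in the early phase was 1.81 (AKR/J), -0.15 (C57BL/6J) and -0.10 (Cav1-null), where the median of all genes tested was between -0.04 and 0.02. In such bulk libraries, fewer cells of a type and less RNA per cell cannot be told apart.

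**Figure D2:**
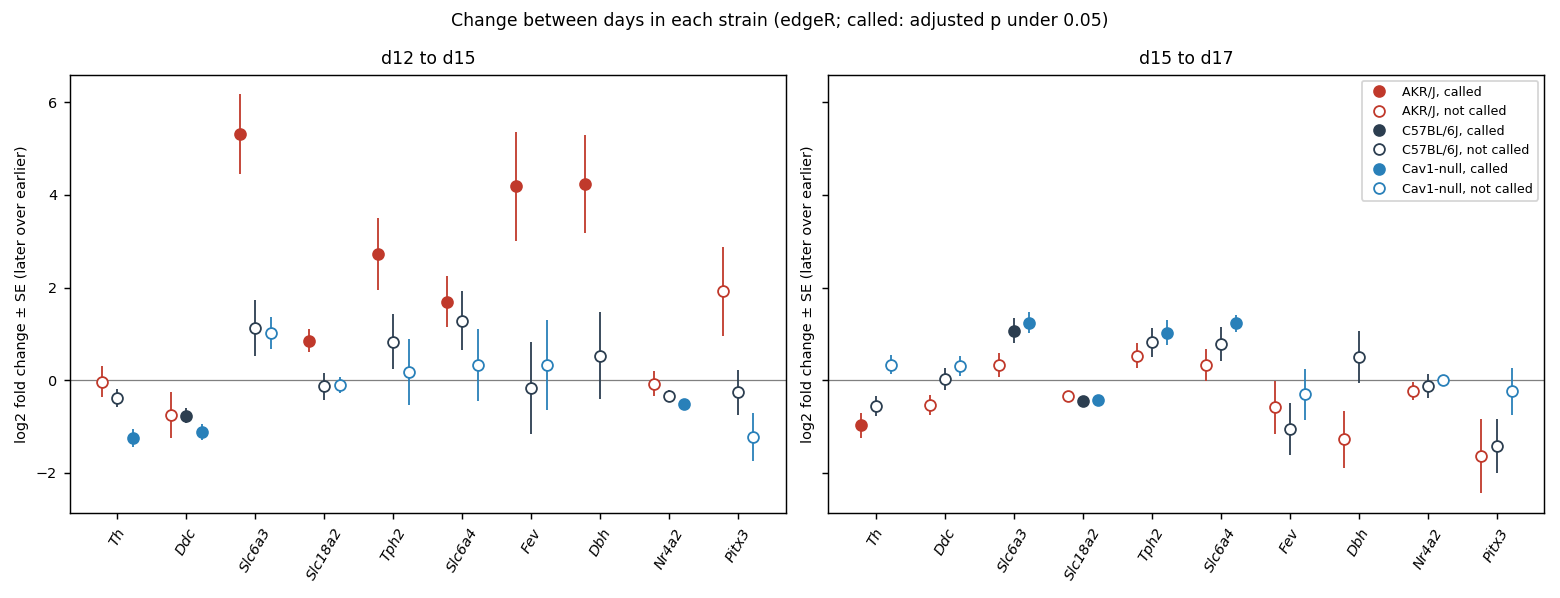
Log2 fold change ± SE of each gene in the early phase (left) and the late phase (right), with 1 colour per strain, filled points for genes called at an adjusted p under 0.05 and open points for the others. In the early phase the fitted AKR/J values of Slc6a3, Fev and Dbh lie above 4, while in the late phase Slc6a3, Tph2 and Slc6a4 are above 0 in each strain.

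Of the enzymes, Th (ENSMUSG00000000214, GRCm39 chromosome 7, 142443466 to 142484865, minus strand), the rate-limiting enzyme of catecholamine synthesis, fell over the days sampled. In C57BL/6J, Th was 7.61, 10.6 and 7.05 CPM on d12, 7.16, 6.43 and 6.37 CPM on d15 and 5.53, 4.01 and 3.47 CPM on d17. In Cav1-null, Th was 7.48, 9.33 and 9.02 CPM on d12, 3.00, 4.07 and 3.80 CPM on d15 and 3.68, 5.66 and 4.36 CPM on d17. In AKR/J, Th was 6.43, 4.34 and 4.37 CPM on d12, 3.61, 5.01 and 6.68 CPM on d15 and 2.88, 2.50 and 2.30 CPM on d17. The d12 libraries were above all d17 libraries in each strain, and the d12 and d15 libraries did not overlap in Cav1-null and overlapped in the other two strains. The interaction terms of Th did not pass the test (adjusted p = 0.0536 early and 0.0578 late for AKR/J against Cav1-null). From d12 to d17, Th fell by 0.97 ± 0.29 (log2, ± SE) in AKR/J, by 0.92 ± 0.28 in C57BL/6J and by 0.93 ± 0.22 in Cav1-null (adjusted p = 0.0251, 0.0428 and 0.00951). The early fall in Cav1-null was -1.25 ± 0.20 (adjusted p = 0.00348) and the late fall in AKR/J was -0.98 ± 0.27 (adjusted p = 0.0327), and neither phase passed the test in C57BL/6J (early -0.38 ± 0.19, late -0.56 ± 0.23). The Cav1-null calls held without any 1 library, whereas the d12 to d17 call was lost in AKR/J without d12 replicate 1 or any d17 library (adjusted p up to 0.108). In C57BL/6J it was lost without any 1 d12 library or d17 replicate 2 or 3 (adjusted p up to 0.163), and the late call of AKR/J without d15 replicate 3 or any d17 library (adjusted p up to 0.123). With library sizes alone the d12 to d17 value of AKR/J was -0.57 (adjusted p = 0.19), and it was not called with no filter either. With the replicate block the late call of AKR/J and the d12 to d17 call of C57BL/6J were lost (adjusted p = 0.0683 and 0.103). Counting did not state its use of strand, and Gm73894 lies on the opposite strand over exons of Th, so reads of these 2 genes cannot be told apart there.

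Ddc (ENSMUSG00000020182, chromosome 11, 11762602 to 11848150, minus strand), the decarboxylase shared by the dopamine and serotonin pathways, also stood highest on d12. Its C57BL/6J libraries had 12.2, 14.7 and 16.9 CPM on d12, 8.94, 9.29 and 8.52 CPM on d15 and 9.54, 6.10 and 10.5 CPM on d17. Its Cav1-null libraries had 14.8, 18.02 and 16.4 CPM on d12, 9.20, 6.71 and 6.64 CPM on d15 and 6.62, 12.8 and 8.30 CPM on d17. Its AKR/J libraries had 25.8, 6.71 and 31.9 CPM on d12, 9.90, 11.9 and 17.8 CPM on d15 and 9.37, 8.79 and 8.92 CPM on d17. The days d12 and d15 did not overlap in C57BL/6J or in Cav1-null, while d12 of AKR/J held both the highest library of the series and one of the lowest. Ddc fell in the early phase by 0.76 ± 0.17 in C57BL/6J (adjusted p = 0.0319) and by 1.12 ± 0.17 in Cav1-null (adjusted p = 0.00283), and by 0.84 ± 0.24 from d12 to d17 in Cav1-null (adjusted p = 0.0205). In AKR/J the early value was -0.75 ± 0.50 (adjusted p = 0.3), and without d12 replicate 2 it was -1.20 and was called (adjusted p = 0.0114), as was that of d12 to d17 at -1.69 (adjusted p = 4.55e-05). The call in C57BL/6J was lost without d12 replicate 1 or any d15 library (adjusted p up to 0.145), that of d12 to d17 in Cav1-null without d12 replicate 2 or d17 replicate 1 or 3 (adjusted p up to 0.0876), and the early call in Cav1-null held without any 1 library. In 1 model of all 27 libraries, whose spread is shared by all groups, the early call in C57BL/6J and the d12 to d17 call in Cav1-null were lost (adjusted p = 0.177 and 0.0772), the first also with the replicate block (adjusted p = 0.0866). The gene 1700042O10Rik lies over exons of Ddc on the opposite strand.

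The splice-junction table bears on the AKR/J values of Ddc. It lists 4 junctions of Ddc with reads in all 27 libraries, and these reads were counted against the gene's own reads in each library. In AKR/J d12 replicates 1 and 3, which had 626 and 628 reads on Ddc, the 4 junctions held 67 and 45 reads, or 10.7% and 7.17% of the gene's reads. In AKR/J d12 replicate 2, with 204 reads on Ddc, they held 40 reads, or 19.6%. In all other 24 libraries the share was 19.1% to 38.2%. The 2 libraries highest in Ddc were therefore the 2 lowest in junction reads per gene read. The authors removed some junction reads, so that a low number can stand for removed reads, and the part of this in the level of Ddc was not tested. The same 2 libraries had the highest summed erythroid markers, 101630 and 197820 CPM.

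**Figure D3:**
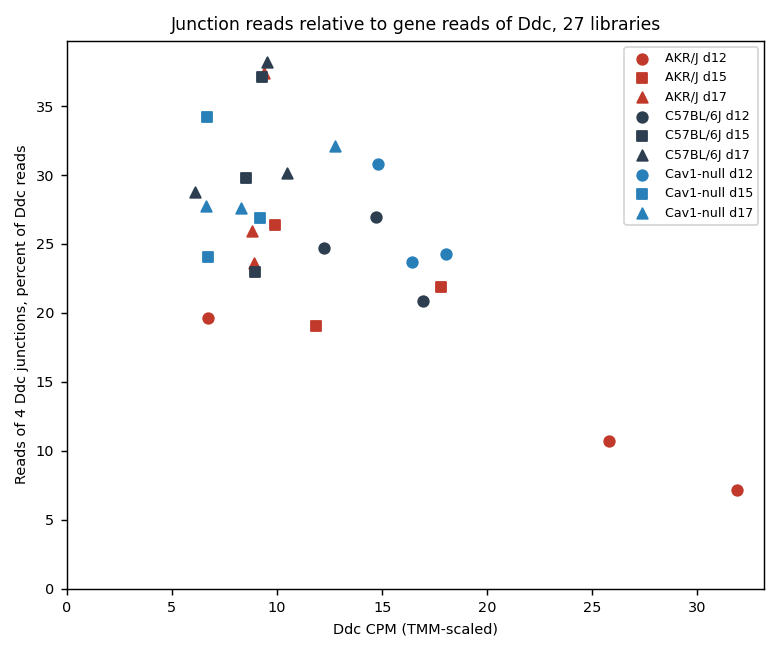
Reads of 4 Ddc splice junctions as percent of the reads counted on Ddc (vertical axis) against Ddc in TMM-scaled CPM (horizontal axis), 1 point per library, with colours for strains and shapes for days. The 2 AKR/J d12 libraries at 25.8 and 31.9 CPM lie lowest, at 10.7% and 7.17%.

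Tph2 (ENSMUSG00000006764, chromosome 10, 114914546 to 115020927, minus strand), the rate-limiting enzyme of serotonin synthesis in neurons, was highest on d17. In AKR/J, Tph2 was 0.165, 0.0658 and 0.813 CPM on d12, 2.07, 2.23 and 2.49 CPM on d15 and 3.08, 2.39 and 4.24 CPM on d17. In C57BL/6J, Tph2 was 0.316, 2.33 and 1.27 CPM on d12, 2.03, 2.01 and 3.10 CPM on d15 and 4.41, 2.68 and 4.93 CPM on d17. In Cav1-null, Tph2 was 0.310, 0.734 and 3.23 CPM on d12, 1.05, 2.19 and 1.69 CPM on d15 and 3.41, 3.42 and 3.24 CPM on d17. All AKR/J libraries of d12 lay below those of d15, whereas d12 and d15 overlapped in the other 2 strains, and in Cav1-null the d15 libraries lay below all those of d17. Tph2 rose in AKR/J early by 2.72 ± 0.78 (adjusted p = 0.032), over d12 to d17 in AKR/J by 3.30 ± 0.76 (adjusted p = 0.0079) and late in Cav1-null by 1.03 ± 0.27 (adjusted p = 0.0119). The early call in AKR/J was lost without d12 replicate 1 or any d15 library (adjusted p up to 0.101), and the other 2 calls held without any 1 library, but the late call in Cav1-null was lost in the model of all 27 libraries (adjusted p = 0.451). The early value in Cav1-null was 0.18 ± 0.72, and it was 1.64 with an adjusted p of 0.0113 without d12 replicate 3, the library high in En1, which was singled out after seeing the data.

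Dbh (ENSMUSG00000000889, chromosome 2, 27055245 to 27074212, plus strand), the enzyme that makes noradrenaline, was the lowest of the 10 per kb. The AKR/J libraries had 2, 0 and 0 reads of Dbh on d12 and 0.440, 0.428 and 0.959 CPM on d15, and 0.357, 0.0723 and 0.301 CPM on d17. The C57BL/6J libraries of Dbh had 0, 1.32 and 1.05 CPM on d12, 0.918, 0.974 and 1.62 CPM on d15 and 2.75, 0.555 and 1.43 CPM on d17. In Cav1-null it was 0.0689, 0 and 0.503 CPM on d12, 0.209, 0.0645 and 0.610 CPM on d15 and 0.167, 0.305 and 0.541 CPM on d17. On d15 every C57BL/6J library was above every Cav1-null library. With 58 reads in the 3 AKR/J libraries of d15 against 2 on d12, the ratio of d15 to d12 was 22.5 with an exact 95% interval of 5.95 to 190 that covers counting error only, and the gene was called there (adjusted p = 0.019) but not without d12 replicate 3 or d15 replicate 1 or 3 (adjusted p up to 0.0925) or with the replicate block (adjusted p = 0.0547). No call was made for Dbh between days in C57BL/6J, and it had too few reads to be tested in Cav1-null or over d12 to d17 in AKR/J. Dbhos lies on the opposite strand over exons of Dbh.

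Among the transporters, Slc6a3 (ENSMUSG00000021609, chromosome 13, 73684866 to 73726801, plus strand), the dopamine transporter, showed the most regular rise. In AKR/J, Slc6a3 had 0, 2 and 0 reads on d12, then 1.23, 1.28 and 1.21 CPM on d15 and 1.39, 1.70 and 1.57 CPM on d17. In C57BL/6J, Slc6a3 had 0.947, 1.96 and 0.222 CPM on d12, 2.22, 2.18 and 2.59 CPM on d15 and 6.33, 4.13 and 3.56 CPM on d17. In Cav1-null, Slc6a3 had 0.655, 0.765 and 1.19 CPM on d12, 1.39, 1.78 and 2.17 CPM on d15 and 3.78, 4.17 and 4.64 CPM on d17. The 3 days did not overlap in any strain, and the d17 libraries of AKR/J lay below all d15 libraries of C57BL/6J. The late rise was 1.07 ± 0.27 in C57BL/6J (adjusted p = 0.0427) and 1.24 ± 0.23 in Cav1-null (adjusted p = 0.00131), against 0.34 ± 0.26 in AKR/J (adjusted p = 0.391). From d12 to d17 the rise was 2.21 ± 0.63 in C57BL/6J (adjusted p = 0.0358) and 2.23 ± 0.31 in Cav1-null (adjusted p = 0.000615). In AKR/J the call from d12 to d17 had an adjusted p of 0.000799 and the early call 0.00423, and both held without any 1 library. As AKR/J had 2 reads in all on d12, its size is given as the ratio of reads, 46.2 on d15 over d12 (119 against 2 reads, exact 95% interval 12.5 to 386) and 57.6 on d17 over d12 (interval 15.6 to 480). The calls in C57BL/6J were lost without 4 libraries each, in the late phase any 1 d15 library or d17 replicate 3 (adjusted p up to 0.149) and over d12 to d17 d12 replicate 1 or any d17 library (adjusted p up to 0.0922), while both in Cav1-null held without any 1 library. In the model of all 27 libraries the late calls of C57BL/6J and Cav1-null were lost (adjusted p = 0.108 and 0.13), the first also with the replicate block (adjusted p = 0.0568).

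Slc6a4 (ENSMUSG00000020838, chromosome 11, 76888903 to 76923169, plus strand), the serotonin transporter, followed Tph2. In AKR/J, Slc6a4 was 1.15, 0.592 and 2.03 CPM on d12, 2.26, 4.06 and 6.23 CPM on d15 and 4.21, 4.95 and 6.38 CPM on d17. In C57BL/6J, Slc6a4 was 0.379, 3.63 and 1.75 CPM on d12, 3.73, 5.13 and 5.45 CPM on d15 and 10.9, 4.10 and 8.43 CPM on d17. In Cav1-null, Slc6a4 was 1.17, 0.214 and 4.44 CPM on d12, 2.86, 2.23 and 2.37 CPM on d15 and 5.92, 6.20 and 5.28 CPM on d17. The Cav1-null libraries of d17 lay above those of d15 with no overlap, and the d12 libraries of that strain lay on both sides of those of d15. Slc6a4 rose by 1.23 ± 0.19 in the late phase of Cav1-null (adjusted p = 0.000328) and by 2.06 ± 0.46 from d12 to d17 in AKR/J (adjusted p = 0.0067), and both calls held without any 1 library, but the first was lost in the model of all 27 libraries (adjusted p = 0.362). In the early phase of AKR/J it rose by 1.70 ± 0.55 (adjusted p = 0.0499), a call kept only without d12 replicate 3 and lost without each of the other 5 libraries (adjusted p up to 0.193), with RLE size factors (adjusted p = 0.056) and with the replicate block (adjusted p = 0.0506). The C57BL/6J values were 1.28 ± 0.63 early, 0.78 ± 0.36 late and 2.08 ± 0.69 over d12 to d17, of which none passed the test (adjusted p = 0.188, 0.176 and 0.0603).

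Slc18a2 (ENSMUSG00000025094, chromosome 19, 59249238 to 59284695, plus strand), the vesicular monoamine transporter, had a lower mean on d17 than on d15 in each strain, while Slc6a3 and Slc6a4 had a higher one. In the early phase of AKR/J it was called higher, as they were. In AKR/J, Slc18a2 was 28.7, 26.1 and 15.0 CPM on d12, 47.3, 39.2 and 43.7 CPM on d15 and 38.0, 33.6 and 30.8 CPM on d17. In C57BL/6J, Slc18a2 was 65.2, 44.8 and 26.2 CPM on d12, 44.5, 44.6 and 39.3 CPM on d15 and 30.5, 31.1 and 28.3 CPM on d17. In Cav1-null, Slc18a2 was 56.1, 57.8 and 34.2 CPM on d12, 45.6, 46.4 and 46.1 CPM on d15 and 32.0, 39.4 and 30.4 CPM on d17. In all 3 strains the d17 libraries lay below those of d15 with no overlap, and on d12 the C57BL/6J and Cav1-null libraries lay on both sides of d15. Slc18a2 fell in the late phase by 0.45 ± 0.11 in C57BL/6J (adjusted p = 0.0415) and by 0.44 ± 0.10 in Cav1-null (adjusted p = 0.00506), and by 0.55 ± 0.19 from d12 to d17 in Cav1-null (adjusted p = 0.0435), while the late value in AKR/J was -0.33 ± 0.11 (adjusted p = 0.0575). In the early phase of AKR/J it rose by 0.85 ± 0.25 (adjusted p = 0.0355), a call lost without d12 replicate 3 or any d15 library (adjusted p up to 0.119). The late call in Cav1-null held without any 1 library but was lost in the model of all 27 libraries (adjusted p = 0.365). That in C57BL/6J was lost without any 1 d15 library or d17 replicate 3 (adjusted p up to 0.162), and that of d12 to d17 in Cav1-null held only without d12 replicate 3 (adjusted p up to 0.189 without the others) and came to 0.00068 when Cav1-null d12 replicates 1 and 2, both low in En1, were left out and 1 library stood for d12. The late C57BL/6J call was also lost with library sizes alone, no filter, the model of 27 libraries and the replicate block (adjusted p up to 0.141), and the d12 to d17 call of Cav1-null with RLE factors, library sizes alone and the model of 27 libraries (adjusted p up to 0.0926). Gm29261 and Pdzd8 lie on the opposite strand over exons of Slc18a2.

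Of the transcription factors, Nr4a2 (ENSMUSG00000026826, chromosome 2, 56996842 to 57014331, minus strand), which is needed by midbrain dopamine neurons and is also made in the cortex, ranged from 18.9 to 59.6 CPM. In C57BL/6J, Nr4a2 was 42.5, 59.6 and 46.4 CPM on d12, 40.7, 43.1 and 37.6 CPM on d15 and 52.2, 27.3 and 26.8 CPM on d17. In Cav1-null, Nr4a2 was 35.2, 36.4 and 33.8 CPM on d12, 24.9, 25.2 and 23.2 CPM on d15 and 24.2, 20.9 and 28.2 CPM on d17. In AKR/J, Nr4a2 was 29.2, 18.9 and 32.2 CPM on d12, 24.8, 19.2 and 34.5 CPM on d15 and 19.1, 23.2 and 23.4 CPM on d17. Cav1-null fell early by 0.52 ± 0.09 (adjusted p = 0.00459) and by 0.54 ± 0.12 from d12 to d17 (adjusted p = 0.00772), with no overlap of d12 with either later day and with both calls kept without any 1 library, but both were lost in the model of all 27 libraries (adjusted p = 0.144 and 0.0871). In AKR/J and C57BL/6J the days overlapped and no change between days was called.

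Pitx3 (ENSMUSG00000025229, chromosome 19, 46123719 to 46136916, minus strand), a factor of midbrain dopamine neurons that is also made in the lens and in muscle, was not called between any 2 days by edgeR with TMM scaling and the filter when all libraries were used. In C57BL/6J, Pitx3 was 1.01, 2.11 and 1.17 CPM on d12, 1.70, 1.45 and 0.531 CPM on d15 and 0.729, 0.247 and 0.341 CPM on d17. In Cav1-null, Pitx3 was 0.723, 0.857 and 2.06 CPM on d12 and 0.267 to 0.742 CPM on the later days, and in AKR/J it was 0.165, 0 and 0.406 CPM on d12, 0.565, 0.978 and 0.575 CPM on d15 and 0.454, 0 and 0.200 CPM on d17. From d12 to d17 it changed by -1.66 ± 0.52 in C57BL/6J and -1.49 ± 0.55 in Cav1-null, with adjusted p-values of 0.0506 and 0.0554. The C57BL/6J value was called with library sizes alone, with no filter and by DESeq2 (adjusted p = 0.0468, 0.0492 and 0.0177), and the Cav1-null value with no filter (adjusted p = 0.0325). Elovl3 lies on the opposite strand over exons of Pitx3.

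Fev (ENSMUSG00000055197, chromosome 1, 74920668 to 74924578, minus strand), the factor that defines serotonin neurons, was low and uneven. In AKR/J, Fev had 0, 0 and 3 reads on d12, then 0.377, 0.642 and 1.63 CPM on d15 and 0.389, 0.506 and 0.835 CPM on d17. In C57BL/6J, Fev was 0, 2.18 and 1.37 CPM on d12, 0.918, 1.00 and 1.30 CPM on d15 and 0.662, 0.123 and 0.682 CPM on d17. In Cav1-null, Fev was 0.0689, 0.0612 and 1.35 CPM on d12, 0.349, 0.710 and 0.881 CPM on d15 and 0.267, 0.983 and 0.318 CPM on d17. In C57BL/6J and Cav1-null the d12 libraries fell into low and high ones, the low ones being those low in En1, and in AKR/J all 3 were low. The AKR/J ratio of d15 to d12 was 21.7 (84 against 3 reads, exact 95% interval 7.18 to 107) and the gene was called there (adjusted p = 0.0306) and over d12 to d17 (adjusted p = 0.0231). The early call was kept only without d12 replicate 3 (adjusted p up to 0.139 without the others), and the other was lost without d12 replicate 1 or any d17 library (adjusted p up to 0.104).

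Several of the 10 genes varied with En1 from library to library within a group. After the mean of each of the 9 groups was taken off the log2(CPM + 0.5) values, Pearson's r with En1 over 27 libraries was 0.86 for Fev, 0.82 for Tph2, 0.82 for Slc6a4 and 0.72 for Dbh, and Spearman's rho was 0.76, 0.79, 0.68 and 0.63. Without the 2 libraries farthest from the median of En1, C57BL/6J d12 replicates 1 and 2, r was 0.75, 0.77, 0.76 and 0.53. Among the 18 libraries of d15 and d17 alone it was 0.67, 0.43, 0.65 and 0.56. Slc18a2 went the other way, with r = -0.76 to En1 (rho -0.50), but among the libraries of d15 and d17 its r to En1 was 0.10. For Slc6a3 r to En1 was 0.11, and for Th 0.28, Ddc 0.42, Nr4a2 0.43 and Pitx3 0.57. Among the libraries of d15 and d17 these were 0.26 for Slc6a3, 0.78 for Th, 0.64 for Ddc, 0.65 for Nr4a2 and 0.43 for Pitx3, so that Th had the highest r of the 10 there. The points share their library sizes and dissections, and the part of region in any change between days or strains was not tested. These correlations are descriptions and carry no p.

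**Figure D4:**
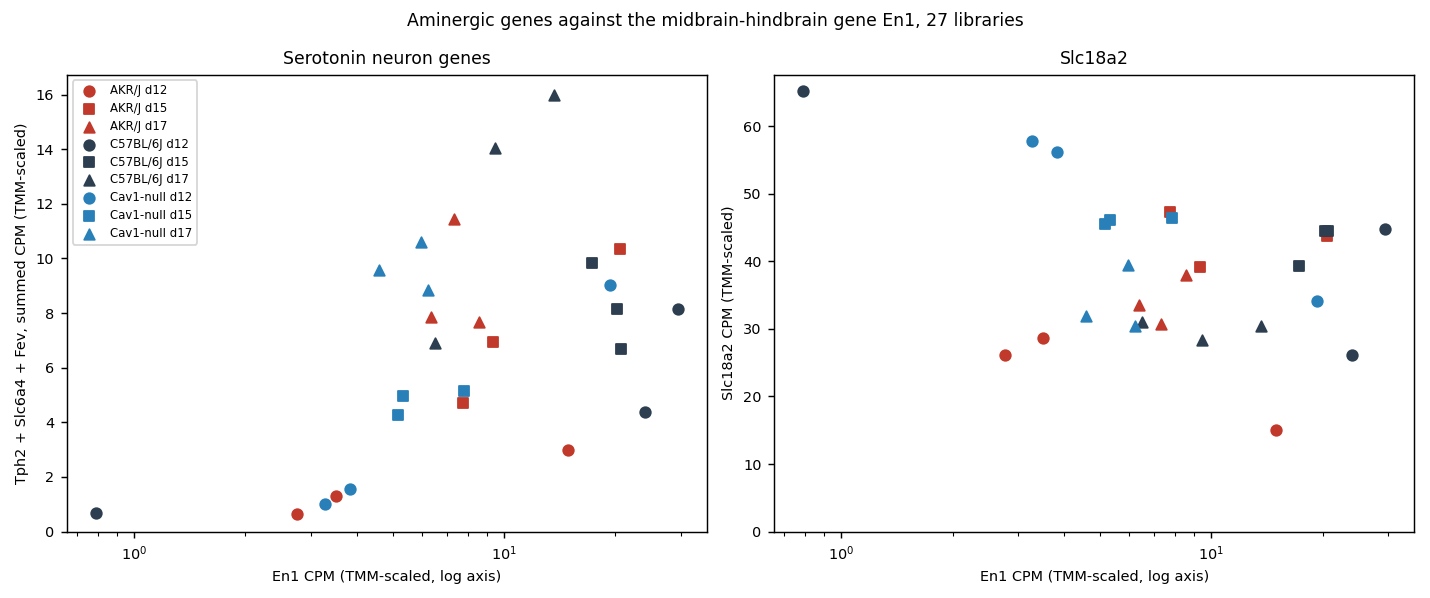
Summed level of Tph2, Slc6a4 and Fev (left) and level of Slc18a2 (right) against En1 in the same library, all in TMM-scaled CPM with a log axis for En1, 1 point per library, with colours for strains and shapes for days. The d12 libraries with En1 under 4 CPM have summed serotonin genes of 0.658 to 1.55 CPM, and the C57BL/6J library with the lowest En1 has the highest Slc18a2.

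The summed level of Tph2, Slc6a4 and Fev was 0.694, 8.14 and 4.38 CPM in the C57BL/6J libraries of d12, 1.55, 1.01 and 9.02 CPM in those of Cav1-null and 1.32, 0.658 and 3.00 CPM in those of AKR/J. Within each strain the lowest sums belonged to the libraries low in En1. Without Cav1-null d12 replicate 3, the one high in En1, the early phase of Cav1-null gave calls on Slc6a4 (1.87, adjusted p = 0.00556), Fev (3.25, adjusted p = 0.00483), Slc6a3 (1.33, adjusted p = 0.0117) and Slc18a2 (-0.30, adjusted p = 0.0159) as well as Tph2. This library too was singled out after seeing the data, and the share of all genes called without it is not given here. The part of region in these calls was not tested. With that library alone on d12, the values were -0.86 for Slc6a4, -0.99 for Tph2 and 0.41 for Slc18a2, given with no test because 1 library, chosen after seeing the data, stands for its day. In AKR/J the early log2 fold change of Tph2 ranged from 2.16 to 4.24 without 1 library.

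Strains were compared on each day in the same way, with each log2 fold change as the first strain over the second. On d15, 4 of the 10 genes were lower in Cav1-null than in C57BL/6J (Th, Slc6a4, Dbh and Nr4a2) and none was higher, where 58.6% of all genes tested were called, 31.8% lower and 26.8% higher. Th was lower by -0.84 ± 0.18 (adjusted p = 0.00211), Slc6a4 by -0.90 ± 0.21 (adjusted p = 0.00443) and Nr4a2 by -0.69 ± 0.08 (adjusted p = 3.19e-05), with no overlap of libraries for these 3 genes and with each call kept without any 1 library. In the model of all 27 libraries those of Slc6a4 and Dbh were lost (adjusted p = 0.288 and 0.136). Dbh was lower by -1.94 ± 0.60 (adjusted p = 0.0177), a call lost without C57BL/6J d15 replicate 3 or Cav1-null d15 replicate 1 (adjusted p up to 0.0703). En1 was 17.3 to 20.7 CPM in the C57BL/6J libraries of that day and 5.16 to 7.81 CPM in those of Cav1-null. Its part in the difference was not tested. On d12 and d17 none of the 10 genes was called between these 2 strains. On d12, 0% of genes were called by edgeR, although 4309 of 19475 had an unadjusted p under 0.05 and 1 of the 10 was among the latter (Nr4a2 was -0.46 ± 0.15), and DESeq2 called none of the 10. On d17, 0.0491% of genes were called (0.00491% higher and 0.0442% lower), and the value of Dbh was -2.20 ± 0.65 with an adjusted p of 0.575.

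**Figure D5:**
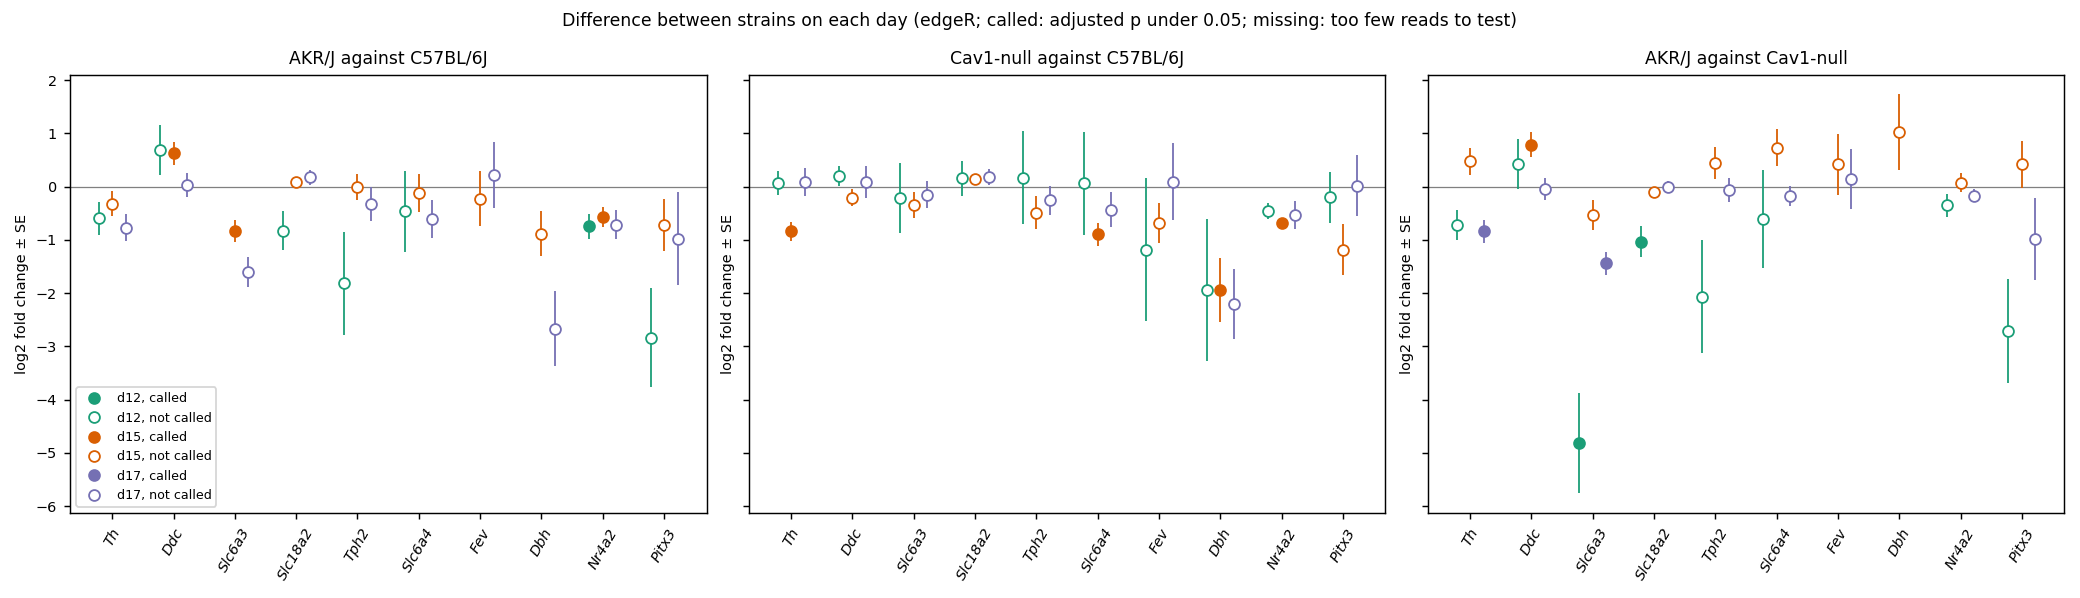
Log2 fold change ± SE between strains on each day, with 1 panel per pair of strains (first over second), 1 colour per day, filled points for genes called at an adjusted p under 0.05 and gaps where a gene had too few reads. Slc6a3 is below 0 in AKR/J against either other strain on each day it was tested, and on d15 Th, Slc6a4, Dbh and Nr4a2 are called lower in Cav1-null than in C57BL/6J.

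Calls of the main edgeR fit (TMM scaling and the filter) between AKR/J and C57BL/6J fell on Nr4a2, Slc6a3 and Ddc, none of them on d17 and each lost without at least 1 of the libraries. On d12, 1 of 7 tested was called, Nr4a2 at -0.75 ± 0.24 (adjusted p = 0.0484), against 28.6% of all genes (14.1% lower), and this call was lost without any 1 of the 6 libraries (adjusted p up to 0.169) and with RLE factors (adjusted p = 0.0597). Slc6a3, Fev and Dbh had too few reads to be tested on d12, and their reads in AKR/J against C57BL/6J were 2 against 99, 3 against 112 and 2 against 75. Those reads gave ratios of 0.0258 (exact 95% interval 0.00308 to 0.0956), 0.0342 (0.00694 to 0.102) and 0.0340 (0.00405 to 0.127). On d15, 3 of 10 were called, against 41.1% of genes (18.8% higher and 22.3% lower), with Ddc at 0.63 ± 0.21, Slc6a3 at -0.84 ± 0.21 and Nr4a2 at -0.57 ± 0.18 (adjusted p = 0.0486, 0.0155 and 0.0399). The Slc6a3 call was lost without C57BL/6J d15 replicate 3 (adjusted p = 0.0615), that of Nr4a2 was kept only without AKR/J d15 replicate 3 and that of Ddc only without AKR/J d15 replicate 1. In the model of 27 libraries the calls of Ddc, Slc6a3 and Nr4a2 on d15 were lost (adjusted p = 0.262, 0.147 and 0.0511), as they were with the replicate block (adjusted p = 0.0879, 0.0567 and 0.0615). That of Ddc was also lost with RLE factors and no filter (adjusted p up to 0.0751), and that of Nr4a2 with library sizes alone (adjusted p = 0.1). On d17, 0 of 10 were called by the main edgeR fit, against 0.742% of genes. At an unadjusted p under 0.05 were 4 of the 10, against 4275 of 20207 genes, and DESeq2 called 2. Slc6a3 was -1.60 ± 0.28 on d17 in the main fit (adjusted p = 0.053), with no overlap of libraries. It was called with library sizes alone, with no filter, in the model of 27 libraries and with the replicate block. Dbh was called with no filter and with the replicate block.

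Between AKR/J and Cav1-null, Slc6a3 was called on 2 of the 3 days. On d12, 2 of 8 tested were called, against 19.6% of genes (9.93% lower), Slc6a3 (adjusted p = 0.0114, 2 against 89 reads, ratio 0.0301, exact 95% interval 0.00359 to 0.112) and Slc18a2 (-1.03 ± 0.29, adjusted p = 0.0395). With 2 reads in AKR/J d12, Slc6a3 passed the filter on low counts through Cav1-null alone and could only be called lower. The Slc18a2 call was lost without AKR/J d12 replicate 1 or 3 or Cav1-null d12 replicate 1 or 2 (adjusted p up to 0.133), and that on Slc6a3 held without any 1 library. With Cav1-null d12 replicates 1 and 2 both left out, the value of Slc18a2 was -0.53, given with no test because 1 library then stands for Cav1-null. That library had 1.19 CPM of Slc6a3, the highest of its group. On d15, 1 of 10 was called, Ddc at 0.79 ± 0.24 (adjusted p = 0.0474), against 19.3% of genes (9.60% higher), and not without AKR/J d15 replicate 3 or any Cav1-null d15 library (adjusted p up to 0.163), nor in the model of 27 libraries or with the replicate block (adjusted p = 0.187 and 0.0855). On d17, 2 of 9 were called, against 12.4% of genes (6.67% lower), Slc6a3 at -1.44 ± 0.22 (adjusted p = 0.00102) and Th at -0.84 ± 0.22 (adjusted p = 0.027). The Slc6a3 call held without any 1 library but was lost in the model of all 27 libraries (adjusted p = 0.102), and that of Th was lost without AKR/J d17 replicate 2 or 3 or Cav1-null d17 replicate 2 or 3 (adjusted p up to 0.123), in that model and with the replicate block (adjusted p = 0.0853 and 0.069). The 3 pairs of strains share their libraries and are not independent of one another.

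An interaction term, fitted over 12 libraries, tested if strains differed in a step between days. For AKR/J against C57BL/6J, 0 of 10 genes were called in either phase by the main edgeR fit, where 0.0711% and 0.00468% of all genes were called. At an unadjusted p under 0.05 were 3 and 0 of the 10, against 3432 of 21090 and 1617 of 21373 genes. DESeq2 called 1 and 0 of the 10. With no filter and in the model of 27 libraries, edgeR called Slc6a3 early. For Cav1-null against C57BL/6J, 0 of 10 were called in either phase by the main edgeR fit, against 0.00472% and 0.252% of genes. In each phase 1 of the 10 was at an unadjusted p under 0.05, against 3181 of 21191 and 4683 of 21431 genes. DESeq2 called 1 and 0 of the 10. For AKR/J against Cav1-null, 1 of 10 was called in the early phase by the main edgeR fit, Slc6a3, against 14.7% of genes (7.86% rising more in AKR/J). There 5 of the 10 were at an unadjusted p under 0.05, against 6576 of 21774 genes, and DESeq2 called 3 (Slc6a3, Th and Pitx3). In the late phase that edgeR fit called 0, against 2.13% of genes. Late, 4 of the 10 were at an unadjusted p under 0.05, against 4505 of 21663 genes, and DESeq2 called 1. The shares of all genes called by DESeq2 are not given here. By the main edgeR fit, an early or late call made in 1 strain and not in another is therefore not shown to differ between strains. The exception is the early step of Slc6a3 in AKR/J against Cav1-null. With library sizes alone, with no filter and in the model of 27 libraries, edgeR called 5, 6 and 5 of 60 interaction terms, against 1 of 60 in the main fit. No interaction was fitted over d12 to d17.

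For the other genes of the amine pathways, the shares of all genes called higher were 14.8%, 7.08% and 11.6% early and 11.6%, 7.46% and 14.5% late in AKR/J, C57BL/6J and Cav1-null, and counts such as 1 of 11, 2 of 12, 1 of 9 and 1 of 7 lie near them. Of 14 serotonin receptor genes, 7 of 9 tested in AKR/J, 8 of 12 in C57BL/6J and 8 of 12 in Cav1-null rose in the early phase and none fell, with median log2 fold changes of 2.59, 1.82 and 1.35. In the late phase 9 of 13, 5 of 13 and 9 of 13 rose and none fell, with medians of 1.15, 0.99 and 0.82. In the early phase these included Htr1a (2.12 ± 0.44 in C57BL/6J and 4.11 ± 0.78 in AKR/J), a receptor that also sits on serotonin neurons themselves, and Htr5a (1.72 ± 0.25 in Cav1-null). Of 5 dopamine receptor genes, Drd1 and Drd2, the main receptors of the striatum, rose in the early phase of C57BL/6J (2.49 ± 0.30 and 1.41 ± 0.38) and Cav1-null (2.34 ± 0.28 and 1.59 ± 0.29), and Drd2 in that of AKR/J (2.23 ± 0.51). In the late phase both rose in AKR/J (1.54 ± 0.22 and 1.31 ± 0.26), Drd1 in C57BL/6J (0.86 ± 0.23) and Drd2 in Cav1-null (1.35 ± 0.19). Of 9 adrenergic receptor genes, 2 of 7, 3 of 8 and 3 of 6 tested rose early in AKR/J, C57BL/6J and Cav1-null, with 2 falling in AKR/J, among them Adra2b (-6.94 ± 0.70). In that same step 7 of 9 tested placenta and yolk sac markers fell, with a median of -7.51, and 9 of 10 erythroid markers, with a median of -4.59, and their part in the early falls of AKR/J on these lists was not tested. Late, 0 of 6, 1 of 9 and 1 of 7 rose.

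Called changes of genes that specify these neurons were mostly falls in the late phase, where 10.4%, 5.58% and 12.8% of all genes fell in AKR/J, C57BL/6J and Cav1-null, and were mixed or few in the early step of the first 2 strains, where 14.0% and 7.80% of all genes fell, against 11.8% in Cav1-null. Of 10 genes of serotonin neuron specification, 0, 2 and 5 fell early in AKR/J, C57BL/6J and Cav1-null, and 6, 7 and 2 fell in the late phase, with none rising. Gata2, a determinant of serotonin neurons, fell by 1.89 ± 0.37 late in AKR/J, by 1.33 ± 0.24 late in C57BL/6J and by 1.34 ± 0.23 early in Cav1-null. Of 16 genes of dopamine neuron specification, 3 rose and 3 fell early in AKR/J, 2 rose and 1 fell in C57BL/6J and 1 rose and 6 fell in Cav1-null, and late 0 rose and 8 fell in AKR/J, 1 and 9 in C57BL/6J and 2 and 3 in Cav1-null. Aldh1a1, an enzyme of retinoic acid synthesis made by a set of midbrain dopamine neurons and also by meninges and vessels, rose in the early phase in each strain (3.37 ± 0.71, 2.86 ± 0.34 and 3.46 ± 0.41 in AKR/J, C57BL/6J and Cav1-null). Foxa2 of the floor plate fell by 1.99 ± 0.48 late in AKR/J and by 1.90 ± 0.39 in the early phase of Cav1-null. Foxa2, Lmx1b, En1 and En2 are on both lists, and the 2 lists are not independent.

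Of 6 genes of noradrenaline neuron specification and uptake, 2 rose early in AKR/J, where 14.8% of all genes rose. None was called early in the other strains. Late, Tfap2b fell in C57BL/6J (-1.14 ± 0.13) and Cav1-null (-0.31 ± 0.08), where 5.58% and 12.8% of all genes fell. Of 14 genes of cofactor synthesis and amine breakdown, 1 rose and 4 fell early in AKR/J, including Gchfr (-2.16 ± 0.56), where 14.8% of all genes rose and 14.0% fell. Maoa, which breaks down serotonin and noradrenaline, rose late in AKR/J (0.60 ± 0.11) and C57BL/6J (0.78 ± 0.18), and 6 of 12 tested genes of this list rose late in Cav1-null, among them Gch1 (1.23 ± 0.24), which makes the cofactor of Th and Tph2. The other early rises on this list were 1 of 11 tested in C57BL/6J and 2 of 12 in Cav1-null, with none falling. On d15 all 10 tested genes of serotonin neuron specification and 13 of 16 of dopamine neuron specification were lower in Cav1-null than in C57BL/6J, with medians of -1.55 and -1.45, where 31.8% of all genes were lower and the median of all genes was 0.03. Insm1 (-2.09 ± 0.07), Nkx6-1 (-1.97 ± 0.48), Lmx1b (-1.76 ± 0.34) and Ret (-1.75 ± 0.28) were among them, and Slc6a2, the noradrenaline transporter, was also lower (-1.27 ± 0.26).

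Genes of brain region and of cell state were counted in the same way. In the early phase, 7 of 15 tested midbrain and hindbrain genes rose in AKR/J and 2 fell, with a median of 2.19, while 0 rose and 2 fell in each of C57BL/6J (of 10 tested) and Cav1-null (of 14). Of all genes 14.8%, 7.08% and 11.6% rose and 14.0%, 7.80% and 11.8% fell in that step in AKR/J, C57BL/6J and Cav1-null, so that 2 of 15 and 2 of 14 are at the background. On d15, 5 of 15 midbrain and hindbrain genes and 10 of 12 forebrain genes were lower in Cav1-null than in C57BL/6J, with medians of -1.48 and -1.03, where 31.8% of all genes were lower, so that the first share was near the background, and 7 of 10 progenitor and cell cycle genes and 7 of 12 pan-neuronal genes were lower too. Pan-neuronal genes rose early in 8 of 12, 4 of 12 and 4 of 12 cases in AKR/J, C57BL/6J and Cav1-null with none falling, and progenitor and cell cycle genes fell in 7, 7 and 9 of 10. The summed sympathoadrenal and ganglion markers (12 genes) were 280 to 334 CPM in C57BL/6J d15 against 137 to 148 CPM in Cav1-null d15, and 75 to 111 CPM in AKR/J d12, the lowest of all groups. Hand1 and Hand2 were at 0 in 19 and 18 of the 27 libraries. The 8 pituitary markers summed to at most 13.8 CPM in any library, with Cga at 0 in 22 libraries. The part of these cells and states in the values of the 10 genes was not tested.

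The genes whose levels ran most like each of the 10 were searched among 16446 genes by Pearson's r of log2(CPM + 0.5), as a description with no p. Over all 27 libraries, whose points share strain, day and library, Slc6a3 was most like Mchr1 (r = 0.97), Tph2 like Sparcl1 (0.94), Slc6a4 like Endod1 (0.90), with Tph2 second at 0.89, and Slc18a2 like Gad2 (0.94), an enzyme that makes GABA. Th was most like Fign (0.86), Ddc like Pdlim3 (0.88), Nr4a2 like Tpm3 (0.87), Pitx3 like Pecam1 (0.845), Fev like Tlx3 (0.85) and Dbh like Kif26b (0.85). With the 9 group means taken off, the nearest of Slc18a2 were Sox1ot (0.94), Gm26973 (0.94) and Nkx2-1 (0.92), a factor of the ventral forebrain. The nearest of Ddc were then Ugcg (0.91), Shh (0.91) and Nkx2-2 (0.91), that of Fev was Ebf2 (0.89) and that of Dbh was Btd (0.82). With a pseudocount of 1 in place of 0.5, 45 of the 60 nearest pairs were kept, and with the group means taken off only Ebf2 of the 3 nearest of Fev and only Btd of the 3 nearest of Dbh were kept. The nearest of Slc6a4 were Cyp26b1 (0.89), Corin (0.89) and Lhx4 (0.88), and for Tph2 Enpp2 (0.91), Sparcl1 (0.84) and Cyp26b1 (0.84). With a pseudocount of 1, only Corin of these was kept for Slc6a4, and Cyp26b1 was not kept for Tph2. Among the 10 themselves, the deviations of Slc6a4 and Fev had r = 0.85, Tph2 and Fev 0.84, Fev and Dbh 0.79 and Tph2 and Slc6a4 0.78. The midbrain factor Pitx3 and the dopamine transporter Slc6a3 were nearest to Tlcd2 (0.80) and Pcdhb17 (0.91), Th to Paqr7 (0.74) and Nr4a2 to Cbll1 (0.82).

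The junction table listed 6 of the 10 genes. Slc18a2 had 6 junctions with 4859 reads over all libraries, and its first, chr19:59249451-59249752, had reads in all 27. Nr4a2 had 2 junctions with 818 reads, Slc6a4 had 4 with 574, Pitx3 had 2 with 170 and Tph2 had 1 with 91. The Tph2 junction was at 0 in 9 libraries, among them all 3 of AKR/J d12 and C57BL/6J d12 replicate 1, which were also low in the gene's reads. No junction of Th, Slc6a3, Fev or Dbh was listed.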

How the data were processed

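Poly(A) RNA of whole fetal brains was sequenced by the authors, who trimmed reads with cutadapt and fastp, aligned them to GRCm39 with STAR and deposited read counts per gene, together with a table of read counts over splice junctions from which junctions with multi-mapped, short-overhang or few reads had been removed. FastQC, bedtools and edgeR are also named in the submitters' processing notes, and the counting tool and its use of strand are not given in the sources used here. Columns left unused numbered 0.

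The gene counts were tested in edgeR 4.0.16 (R 4.3.3) after filterByExpr and TMM scaling, with quasi-likelihood F tests, Benjamini-Hochberg adjustment over all genes tested and a threshold of 0.05, on the libraries of the groups compared. SE was derived by dividing the absolute log2 fold change by the root of F. The steps were run on simulated counts with known changes for some of the comparisons, and the outcome is not given here. Those changes were put only into genes above a minimum mean of reads. They did not cover genes near 0 reads in a group, such as Slc6a3, Fev and Dbh in AKR/J d12. Alternatives were RLE factors, library sizes alone, no filter, DESeq2 1.42.0, 1 model of all 27 libraries, the replicate number as a block and each library left out. Other values were computed with pandas 2.3.3, scipy 1.17.1 and numpy 2.4.6 under Python 3.11.15, and figures with matplotlib 3.10.9. Depth was 26363697 to 39759702 reads on genes, and exact intervals of read ratios cover counting error only. All 10 genes are named, with at most the 3 called genes of largest absolute log2 fold change in each pathway list among those with a mean log2 CPM of at least 0, and up to 3 genes with the highest r to each of the 10. The 10 genes and all lists were chosen with earlier results of these data known, and serve as description. Gene positions, exons and start sites are from the GENCODE annotation of GRCm39, and promoter sequence is from the GRCm39 primary assembly. Some genes of the lists are not reported here.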

Additional observations from a re-analysis of the deposited data

Results flagged for a closer look

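The change of Slc6a3 from d12 to d15 differed between AKR/J and Cav1-null by the interaction term, which was 4.26 on the log2 scale (AKR/J minus Cav1-null, edgeR, adjusted p = 0.00868). It was called in 12 of 12 fits that left out 1 library each. The AKR/J libraries of d12 held 2 reads of Slc6a3 in all, so the size depends on the prior count of the fit and is no bound. The summed erythroid markers of those libraries were 33204 to 197820 CPM, and their part in the difference was not tested.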

How the results depend on the processing

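Counts of the 10 genes called moved by more than 1.5 times as follows, and the cause was not tested. The shares of all genes called are not given here for these settings, for 1 library left out or for the replicate block. These counts therefore show how the calls on the 10 genes moved and are not set against a background. With library sizes alone 2 were called late in AKR/J, 1 late in C57BL/6J and 4 over d12 to d17 in C57BL/6J, and with no filter 2, 1 and 4. DESeq2 called 2 late in AKR/J and 5 over d12 to d17 in C57BL/6J. The model of 27 libraries called 0 in the early and late phases of C57BL/6J, 0 in the late phase of Cav1-null and 2 over d12 to d17 there. Between AKR/J and C57BL/6J, RLE factors, library sizes alone, no filter, DESeq2 and the model of 27 libraries called 0, 2, 6, 2 and 8 on d12, the model of 27 called 0 on d15, and library sizes alone, no filter, DESeq2 and the model of 27 called 1, 2, 2 and 1 on d17. That model called 2 between Cav1-null and C57BL/6J on d15, and 5, 0 and 0 between AKR/J and Cav1-null on d12, d15 and d17, where library sizes alone called 5 on d12. For interactions, no filter, DESeq2 and the model of 27 called 1 each for AKR/J against C57BL/6J early, DESeq2 called 1 for Cav1-null against C57BL/6J early, library sizes alone, no filter, DESeq2 and the model of 27 called 5, 3, 3 and 4 for AKR/J against Cav1-null early, and no filter and DESeq2 called 2 and 1 late. Leaving out Cav1-null d12 replicates 1 and 2, chosen after seeing the data, leaves 1 library that is assumed to vary like the other group, so that its fits give log2 fold changes and no test of the day. It turned Slc18a2 over d12 to d17 in Cav1-null to 0.00068 and Fev between Cav1-null and C57BL/6J on d12 to 0.20. With 1 library left out, the interaction of Slc6a4 for AKR/J against Cav1-null early ranged from -0.16, without Cav1-null d12 replicate 3, to 1.91.

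With 1 library left out, calls in the early and late phases and over d12 to d17 ranged from 1 to 5, 0 to 2 and 3 to 7 in AKR/J, 0 to 1, 0 to 5 and 0 to 3 in C57BL/6J and, early and over d12 to d17, 3 to 8 and 3 to 7 in Cav1-null. Between strains they ranged from 0 to 3, 0 to 3 and 0 to 4 on d12, d15 and d17 for AKR/J against C57BL/6J, 1 to 3, 0 to 2 and 1 to 2 for AKR/J against Cav1-null and 0 to 2 on d17 for Cav1-null against C57BL/6J. For interactions they ranged from 0 to 1 (AKR/J against C57BL/6J early), 0 to 1 and 0 to 2 (Cav1-null against C57BL/6J early and late) and 1 to 4 and 0 to 2 (AKR/J against Cav1-null early and late).

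The replicate numbers were not treated as pairing the samples, since 7 of 54 same-numbered pairs had deviations correlated above 0.1 and 0 of 18 comparisons had all 3. With the replicate block, calls were 0 late in AKR/J, 0 and 0 in the early and late phases of C57BL/6J and 1 over d12 to d17 there, 2, 0 and 2 between AKR/J and C57BL/6J on d12, d15 and d17, and 0 and 1 between AKR/J and Cav1-null on d15 and d17. Library sizes alone put the all-gene median of log2 fold changes at 0.46 for the early AKR/J step, where Th was then 0.44 and Nr4a2 0.43.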
